A study of Homo sapiens with 9 samples.

Results

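Recovery from 1 h to 6 h after heat stress was examined by setting 2 RNA-seq libraries of the condition H1R6 against 2 libraries of the condition H1R1, which are 4 of the 9 libraries of the series. HEK293T is a human embryonic kidney cell line that carries the SV40 large T antigen, and it was grown in DMEM with serum at 37 °C. In H1R1 and H1R6 the cells were held at 43 °C for 1 h and then returned to 37 °C, for 1 h in H1R1 and for 6 h in H1R6. The other 5 libraries included 2 of untreated cells, labelled wild-type (NC). The rest were 2 taken at the end of the 1 h at 43 °C (H1) and 1 taken after 18 h of recovery (H1R18). These 5 served as reference levels and shared 1 estimate of the spread. The 4 libraries were chosen by their labels alone, so every value of H1R6 against H1R1 below is a measurement that the choice of libraries did not use. The gene lists, in contrast, were chosen with earlier results of these data known. The question of the comparison is which transcripts declined and which were restored between 1 h and 6 h at 37 °C.

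Total RNA depleted of ribosomal RNA was sequenced, and the deposited values were raw counts per gene. The H1R1 libraries held 6221613 and 4476409 counts, and the H1R6 libraries 5533404 and 5652672 (3814195 to 5730556 in the other 5). Levels are given as CPM, counts scaled to a common library size by TMM, in the order replicate 1, replicate 2, and changes as log2 fold changes with their standard error (SE). A gene was called changed when edgeR's quasi-likelihood test gave a Benjamini-Hochberg adjusted p under 0.05 over all 21139 genes tested. The sources do not say whether replicate libraries were grown as separate cultures, so the p-values measure the spread between these libraries, which may be technical. In bulk RNA, fewer cells that express a gene and less RNA per cell cannot be told apart. Of 7 marker genes of HEK293 cells, all but LHX1 (0 to 2 counts) were well above 0 in the 4 libraries. The markers of hepatocytes summed to at most 8 counts in any of the 4, and those of blood and fibroblasts to between 261 and 386, nearly all of them from COL1A1.

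Heat unfolds proteins. The transcription factor HSF1, released from chaperones, then binds heat shock elements in promoters and drives the genes of chaperones, which refold or hold other proteins. As chaperones build up they bind HSF1 again, and its targets decline. Heat also starts a brief wave of stress-activated transcription factors and of their inhibitors, while much other transcription and the translation of many messages are held back. Replication-dependent histone messages lack a poly(A) tail and are made mainly while DNA is copied.

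Promoters from 3 groups of genes are shown here, because each group holds a known regulatory motif more often than promoters at large. The sequences are from RefSeq on GRCh38.p14 and give the 250 bases before the annotated start, 5′ to 3′ on the strand of the gene, with the motif in capitals. Motifs were searched on both strands in 17751 such promoters of 12269 tested genes. A match describes letters in this window and is not a measured binding site. The heat shock element searched was GAANNTTCNNGAA or its reverse complement TTCNNGAANNTTC, found in 0.3155% of all promoters, in 6 of 44 promoters of cytosolic chaperones (13.64%) and in 5 of 357 promoters of genes lower at H1R6 by over 1 on the log2 scale (1.401%). In CHORDC1 the 3 matches overlap. The 6 chaperone genes were HSPA6, HSPA8, CHORDC1, DNAJB6, HSP90AA1 and HSP90AB1, and they did not move alike. From H1R1 to H1R6 the first 4 fell, HSP90AA1 rose (0.26) and HSP90AB1 did not pass (0.04). These first 4 and LINC00862 are the 5 genes lower by over 1 that held the element. The share among falling genes thus repeats chaperone promoters and is no separate result. HSPA8 and CHORDC1, shown with HSPA6, were chosen after their values were seen, and all 3 are genes that fell.
HSPA6 promoter, chr1:161524290-161524539, plus strand: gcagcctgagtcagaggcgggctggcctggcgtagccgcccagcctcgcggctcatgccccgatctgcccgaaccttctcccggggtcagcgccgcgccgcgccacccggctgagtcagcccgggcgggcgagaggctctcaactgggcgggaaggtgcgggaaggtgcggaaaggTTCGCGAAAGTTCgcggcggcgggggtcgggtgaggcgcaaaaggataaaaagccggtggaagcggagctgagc
HSPA8 promoter, chr11:123062137-123062386, minus strand: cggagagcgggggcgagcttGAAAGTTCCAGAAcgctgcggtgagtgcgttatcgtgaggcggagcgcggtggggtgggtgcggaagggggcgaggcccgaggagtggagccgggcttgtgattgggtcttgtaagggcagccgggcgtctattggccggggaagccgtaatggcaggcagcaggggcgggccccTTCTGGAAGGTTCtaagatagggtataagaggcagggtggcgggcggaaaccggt
CHORDC1 promoter, chr11:90223050-90223299, minus strand: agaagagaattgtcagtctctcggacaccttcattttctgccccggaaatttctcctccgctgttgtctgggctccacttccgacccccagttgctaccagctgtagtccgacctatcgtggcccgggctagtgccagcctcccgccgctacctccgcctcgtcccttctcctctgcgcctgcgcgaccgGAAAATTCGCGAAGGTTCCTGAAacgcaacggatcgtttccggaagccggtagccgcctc

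The second motif was the ER stress response element, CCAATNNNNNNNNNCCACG or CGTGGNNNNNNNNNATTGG, which ATF6 and XBP1 are known to read together with NF-Y. It was found in 0.1014% of all promoters and in 8 of 24 promoters of ER chaperones (33.33%), in 7 genes: PDIA6, CANX, HSPA5, HSP90B1, CALR, XBP1 and CRELD2. HSPA5 encodes BiP, the main HSP70 of the endoplasmic reticulum. The third was the octamer ATTTGCAT or ATGCAAAT, which OCT1 is known to bind. It was found in 1.403% of all promoters and in 22 of 52 promoters of replication-dependent histone genes (42.31%), all of them genes of H2A or H2B. These are not all separate sites. The window of H2AC11 (chr6:27132793-27133042, plus strand) overlaps that of H2BC11 on the other strand, and the same octamer was counted for both. H2BC11 was among the highest histone messages, and H2AC17 was chosen after its values were seen.
HSPA5 promoter, chr9:125241344-125241593, minus strand: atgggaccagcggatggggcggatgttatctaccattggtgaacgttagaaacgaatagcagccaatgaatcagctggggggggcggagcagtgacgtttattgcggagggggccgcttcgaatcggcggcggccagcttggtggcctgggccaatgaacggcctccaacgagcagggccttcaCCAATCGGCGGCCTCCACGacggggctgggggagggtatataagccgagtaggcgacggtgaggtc
H2BC11 promoter, chr6:27132796-27133045, minus strand: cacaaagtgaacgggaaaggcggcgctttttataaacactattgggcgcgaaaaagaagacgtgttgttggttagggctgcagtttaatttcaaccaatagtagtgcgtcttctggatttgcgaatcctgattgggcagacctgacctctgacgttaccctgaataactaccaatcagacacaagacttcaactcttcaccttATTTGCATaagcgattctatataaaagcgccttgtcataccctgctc
H2AC17 promoter, chr6:27893186-27893435, minus strand: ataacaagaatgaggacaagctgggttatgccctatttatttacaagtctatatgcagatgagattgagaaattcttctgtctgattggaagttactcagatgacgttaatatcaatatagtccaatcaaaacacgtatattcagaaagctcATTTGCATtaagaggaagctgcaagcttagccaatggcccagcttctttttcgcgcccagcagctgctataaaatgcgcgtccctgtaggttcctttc

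From H1R1 to H1R6, 1360 genes were higher (6.43%) and 1888 were lower (8.93%), or 15.4% in either direction. The median of all genes tested was -0.01 on the log2 scale, and the called genes had a median of 0.81 when higher and of -0.53 when lower. By over 1 on the log2 scale, 511 were higher and 439 lower, and by over 2, 123 and 142. In 27.6% of genes both H1R6 libraries lay above both H1R1 libraries, and in 29.2% both lay below. Protein-coding genes were called in 8.07% of cases as higher and in 12.3% as lower, and long intergenic noncoding RNAs in 5.84% and 3.14%. The split of the calls depended on the scaling, since 41.87% of the called genes were higher under TMM, 50.3% under upper-quartile factors (1581 higher, 1562 lower) and 62.3% with library size only (1946 higher, 1177 lower). The counts fell to 651 higher and 1137 lower without H1R1 replicate 1, to 695 and 953 without H1R6 replicate 1, and to 839 and 1063 without H1R6 replicate 2.

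**Figure D1:**
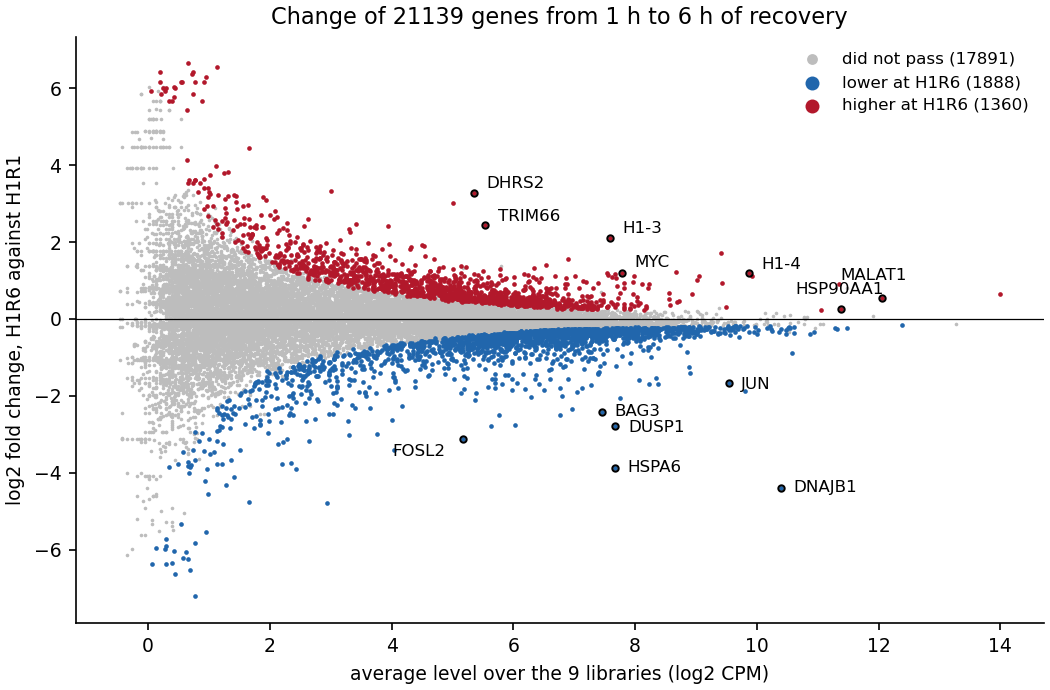
Each point is 1 of the 21139 genes tested, with its average level over the 9 libraries on the x axis (log2 CPM) and its log2 fold change of H1R6 against H1R1 on the y axis; blue points were called lower (1888), red points higher (1360) and grey points did not pass. DNAJB1 and HSPA6 stand lowest among the well-expressed genes, while DHRS2, TRIM66 and H1-3 stand among the highest.

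Many transcripts that heat had moved turned back in this interval. At the end of the heat, H1 against NC, which shares no library with H1R6 against H1R1, 726 genes were higher (3.43%) and 374 lower (1.77%). Of the 726 raised genes, 435 fell from H1R1 to H1R6 (59.92%, against 8.93% of all genes) and 6 rose. Their median level against NC was 1.04 at H1, 1.03 at H1R1 and 0.25 at H1R6 on the log2 scale. The near-equal medians at H1 and H1R1 did not hold by size of the rise at H1. From H1 to H1R1 the median went from 2.97 to 2.49 in genes raised by over 2 and from 1.47 to 1.29 in those raised by 1 to 2. In those raised by up to 1 it went from 0.52 to 0.72. These sizes were set by the H1 values themselves. For all 726 genes the median change from H1R1 to H1R6 was -0.70, with quartiles of -1.26 and -0.33. It was -1.47 for the 173 genes raised by over 2, -0.86 for the 196 raised by 1 to 2 and -0.51 for the 357 raised by up to 1. The shares called lower went the other way, at 41.62%, 56.12% and 70.87% in the same order.

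Of the 374 genes lowered by heat, 176 rose from H1R1 to H1R6 (47.06%, against 6.43% of all genes) and 5 fell. Their median against NC was -0.74 at H1, -0.71 at H1R1 and -0.13 at H1R6. The median change from H1R1 to H1R6 was 0.52. These heat-raised genes made up 23.04% of all genes that fell in the interval, and the heat-lowered ones 12.94% of all that rose. Most of the changed genes had thus not been called at the end of the heat. At H1R1, 2254 genes stood above NC (10.7%) and 2015 below (9.53%), whereas 635 stood above (3.0%) and 851 below (4.03%) at H1R6, in comparisons that share the H1R1 or H1R6 libraries with the one described here. With replicate 1 of H1 left out, 271 heat-raised genes fell and 75 heat-lowered genes rose, and with replicate 2 of H1 left out, 236 and 85. Without H1R6 replicate 1, 106 heat-lowered genes rose.

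**Figure D2:**
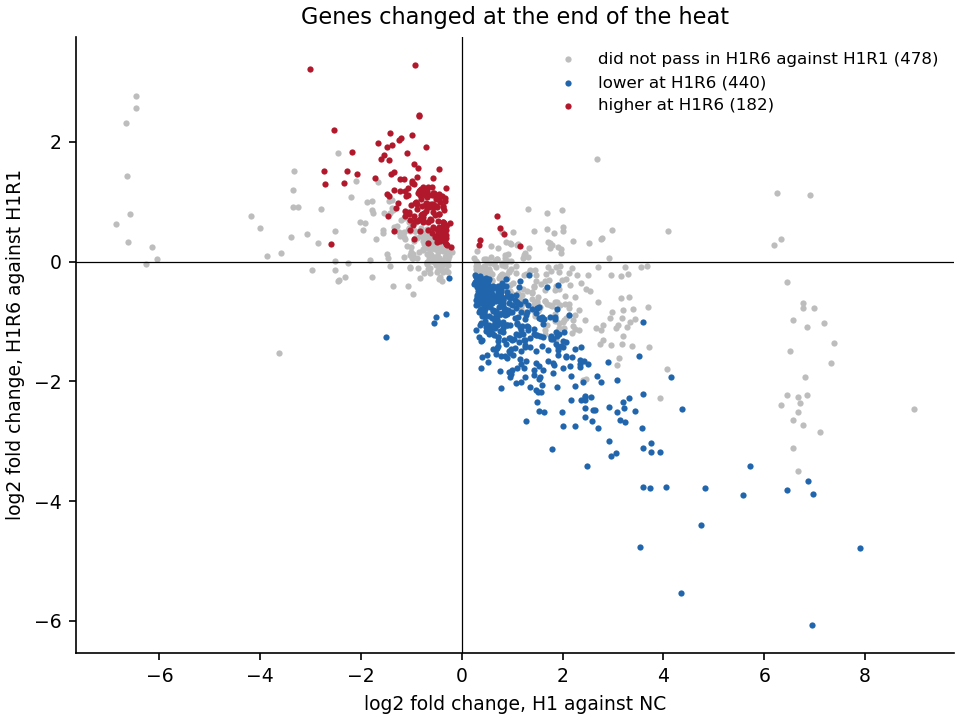
Each point is a gene called in H1 against NC, with its log2 fold change at the end of the heat on the x axis and its log2 fold change of H1R6 against H1R1 on the y axis; blue points were lower at H1R6, red points higher and grey points did not pass. Of the 726 genes at the right of 0, 435 are blue, and of the 374 at the left, 176 are red.

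Some cytosolic chaperones fell while others did not, and several that fell still stood above NC at H1R6. Of 37 listed, 34 were tested, 15 fell, 1 rose and 18 did not pass, with a median of -0.27. Of all genes 8.93% were lower and 6.43% higher, and of protein-coding genes 12.3% and 8.07%. Against NC, 26 of the 34 were higher at H1R1 and 18 were still higher at H1R6. Of all genes 10.7% and 3.0% were, which are also the shares to set beside such counts below. The members summed to 21200 and 21210 CPM at H1R1 and to 13510 and 15010 CPM at H1R6, against 5362 and 5335 in NC.

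The largest fall of any well-expressed gene was that of DNAJB1, the HSP40 co-chaperone that stimulates HSP70. DNAJB1 (chr19:14514769-14560391, minus strand, GRCh38) stood at 3684 and 3825 CPM at H1R1 and at 139 and 219 CPM at H1R6, against 69.5 and 80.4 in NC. Both H1R6 libraries were far below both H1R1 libraries and still above both NC libraries. The change was -4.39 (SE 0.11, edgeR adjusted p = 9.9e-23), and the level at H1R6 remained 1.26 above NC (edgeR adjusted p = 4.2e-09). The gene overlaps TECR on the other strand, and counting did not use strand.

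HSPA6, a strictly heat-inducible HSP70 that is nearly silent otherwise, went from 565 and 689.7 CPM at H1R1 to 26.1 and 58.8 CPM at H1R6, against 0.82 and 3.13 in NC. Its libraries did not overlap between the conditions, and at H1R6 replicate 2 was the higher, as it was for DNAJB1. The fall was -3.88 (SE 0.18, edgeR adjusted p = 2.9e-16), and H1R6 remained 4.51 above NC. HSPA6 has a near-identical neighbouring copy, HSPA7, and reads that fit both were not counted. The main inducible pair HSPA1A and HSPA1B, which are near-identical to each other, held 0 to 3 counts in every library and could not be tested.

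BAG3, a nucleotide exchange factor of HSP70 in selective autophagy, went from 406 and 428 CPM to 60.8 and 94.6 CPM (-2.42, SE 0.12, edgeR adjusted p = 6.7e-16), and stayed above the 32.2 and 30.5 CPM of NC. Among members chosen after their values were seen, HSPA8, the constitutive HSP70 whose level rose with heat, went from 2192 and 1695 CPM to 434 and 623 CPM (-1.88). DNAJB6, an HSP40 that keeps aggregation-prone proteins soluble, went from 234 and 271 CPM to 76.3 and 76.0 (-1.73). CHORDC1, an HSP90 co-chaperone, went from 464 and 498 CPM to 130 and 169 (-1.68). HSPA8 and DNAJB6 at H1R6 did not differ from NC by the test (edgeR adjusted p = 0.43 and 0.84), while CHORDC1 was 0.66 higher (edgeR adjusted p = 5.9e-05).

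HSP90AA1, the inducible cytosolic HSP90, was the 1 member that rose. It stood at 3438 and 3544 CPM at H1R1 and at 4035 and 4340 CPM at H1R6, against 985 and 999 in NC. Both H1R6 libraries were the higher ones. The change was 0.26 (SE 0.05, edgeR adjusted p = 0.00022), which kept its call in all 19 alternative settings.

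The constitutive HSP90AB1 stood at 2361 and 2366 CPM at H1R1 and at 2344 and 2531 CPM at H1R6, and its libraries overlapped (0.04, SE 0.05, edgeR adjusted p = 0.65), at 1.25 above NC. HSPH1, an HSP110 that acts as exchange factor of HSP70 and was chosen after its values were seen, stood at 2721 and 2719 CPM at H1R1 and at 2392 and 2755 CPM at H1R6 (-0.08, SE 0.06, edgeR adjusted p = 0.42), against 135 and 133 CPM in NC. At H1R6 it was thus 4.26 above NC, about as far as HSPA6 and much farther than DNAJB1.

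**Figure D3:**
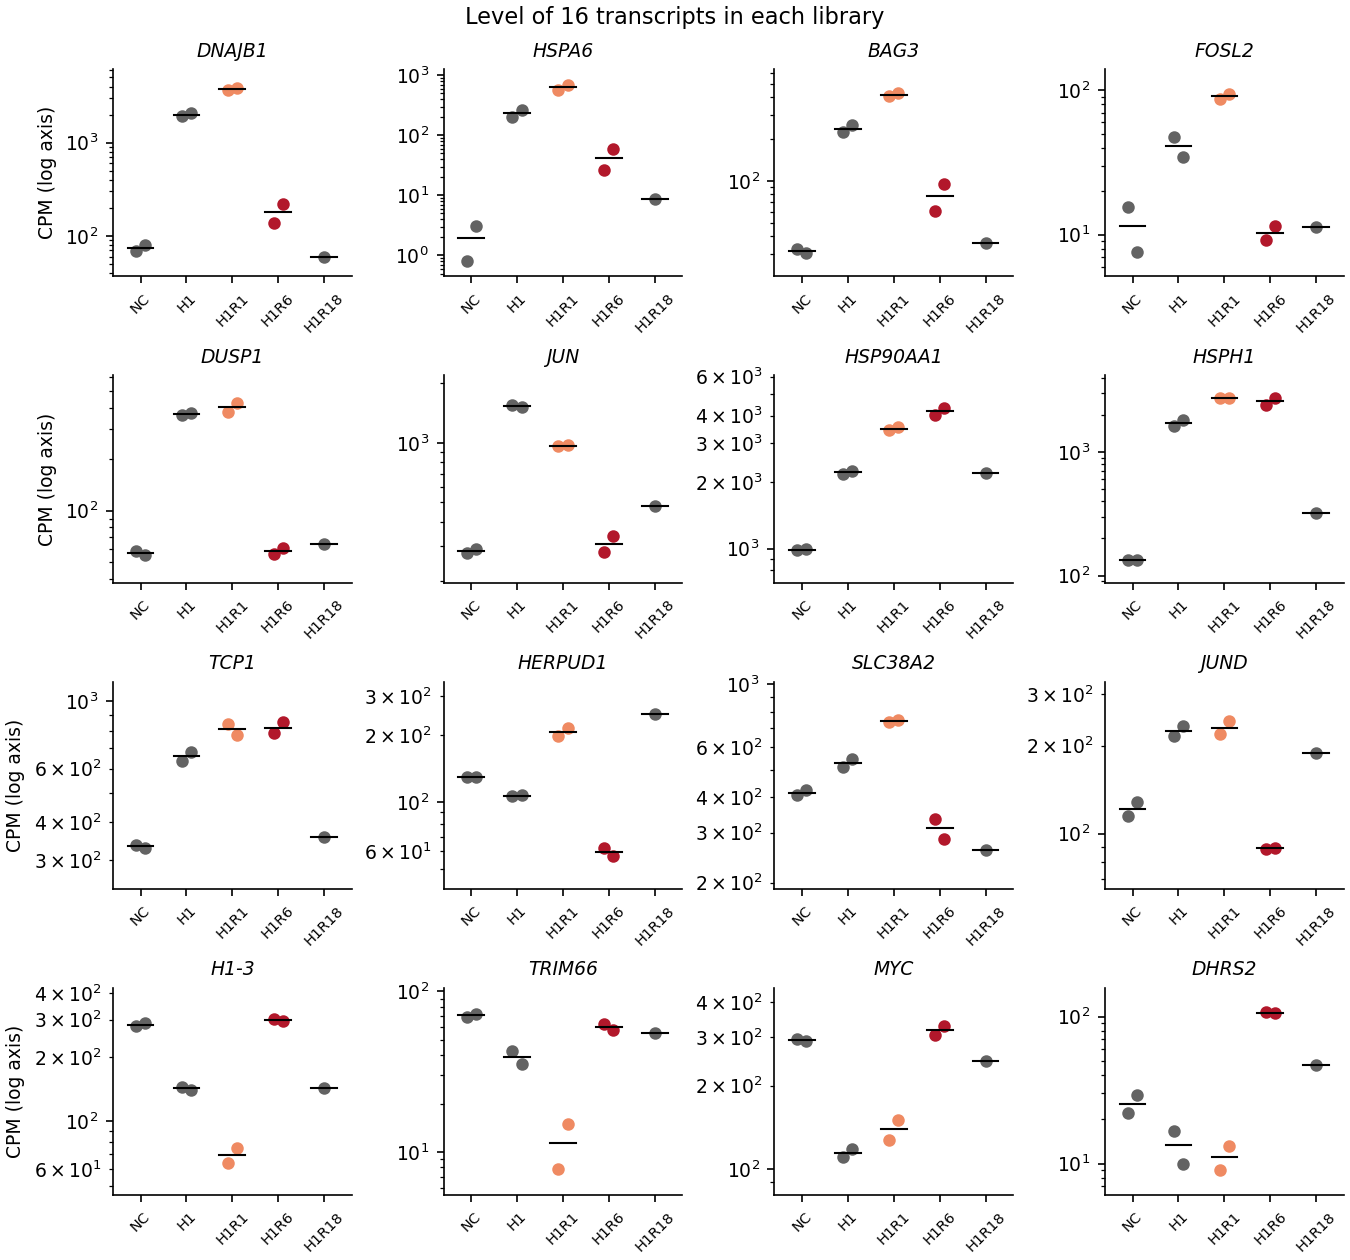
Each panel gives 1 transcript, with CPM on a log axis and the 5 conditions on the x axis; each point is 1 library and each bar the mean of a condition, with H1R1 in orange and H1R6 in dark red. From H1R1 to H1R6, DNAJB1, FOSL2, DUSP1 and JUN fall, HSP90AA1, HSPH1 and TCP1 remain above NC, HERPUD1, SLC38A2 and JUND go below NC, and H1-3, TRIM66, MYC and DHRS2 rise. At H1R18, HERPUD1 (249.9) and JUND (189.1) are above NC again.

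TRiC, the ring-shaped chaperonin that folds actin and tubulin, also held subunits that fell and subunits that did not, with smaller changes. Of its 8 subunits, 6 fell, against 12.3% of protein-coding genes lower. The median of the 8 was -0.27, and the other 2 were TCP1 and CCT8. CCT5 went from 363 and 359.9 CPM to 249.2 and 269 CPM (-0.48, SE 0.07, edgeR adjusted p = 1.9e-05), slightly below the 313 and 306 of NC. It was the 1 subunit called below NC at H1R6, where 4 were above. At H1R1 all 8 were above NC. TCP1 stood at 839 and 776 CPM at H1R1 and at 784 and 853 CPM at H1R6, with overlapping libraries (0.02, SE 0.07, edgeR adjusted p = 0.90), and remained 1.29 above NC. The 6 calls became 3 without H1R1 replicate 1 and 2 without H1R6 replicate 1.

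In mitochondria, 7 of 14 tested chaperones and proteases fell and none rose, with a median of -0.20, against 12.3% of protein-coding genes lower. GRPEL2, an exchange factor of the mitochondrial HSP70, went from 129 and 162 CPM to 98.6 and 69.9 CPM (-0.78, SE 0.12). HSPD1, the chaperonin HSP60, stood at 2011 and 1961 CPM and then at 1669 and 1747 CPM (-0.22, SE 0.06, edgeR adjusted p = 0.0079), still 1.28 above NC. HSPD1 lost its call with library size only, without H1R1 replicate 1 and without H1R6 replicate 1. The 7 calls became 3 with library size only, 2 without H1R1 replicate 1, 4 without H1R6 replicate 1 and 4 without H1R6 replicate 2.

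Among genes that tag and deliver damaged proteins, the changes called were downward. Of 17 genes of ubiquitin, of ZFAND proteins and of adaptors of p97, 8 fell and none rose (median -0.16). Of all genes 8.93% were lower, and of protein-coding genes 12.3%. The 8 became 5 without H1R6 replicate 2. ZFAND2A, a heat-induced factor that binds the proteasome, went from 86.7 and 106 CPM to 10.6 and 17.4 CPM (-2.77, SE 0.17, edgeR adjusted p = 1.9e-13), against 8.57 and 7.57 in NC. It overlaps its divergent transcript on the other strand. UBB, a polyubiquitin gene, went from 316 and 327 CPM to 213.9 and 214.0 CPM (-0.59, SE 0.08, edgeR adjusted p = 2.6e-06), level with the 191 and 216 CPM of NC.

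Of 39 tested subunits and regulators of the proteasome, 8 fell and none rose, with a median of -0.20, against 12.3% of protein-coding genes lower. The 8 became 3 with library size only, and 2 or 3 without H1R1 replicate 1, H1R6 replicate 1 or H1R6 replicate 2. PSMD6, a subunit of its regulatory particle, went from 185 and 167 CPM to 124 and 125 CPM (-0.50, SE 0.09, edgeR adjusted p = 0.00017).

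The wave of early transcription factors was largely over by H1R6. Of 26 listed, 24 were tested, 12 fell and 1 rose, with a median of -0.64, against 12.3% lower and 8.07% higher among protein-coding genes. Against NC, 11 were higher at H1R1 and 1 at H1R6. FOSL2, a partner of JUN in AP-1 (chr2:28392448-28417317, plus strand), went from 86.5 and 94.95 CPM to 9.18 and 11.5 CPM, against 15.5 and 7.57 in NC. The H1R6 libraries lay within the range of NC and far below H1R1 (-3.13, SE 0.21, edgeR adjusted p = 1.0e-12). JUN itself went from 959.5 and 980.2 CPM to 279 and 336 CPM (-1.66, SE 0.07, edgeR adjusted p = 4.4e-17), against 278 and 291 in NC. JUND, another AP-1 member, went from 219 and 242 CPM to 88.7 and 89.4 CPM (-1.37) and ended below the 115 and 129 of NC.

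FOS and EGR1, among the best known immediate early genes and chosen here after their values were seen, did not pass in this interval (-0.59 and 0.49). They had been at 67.1 and 48.5 CPM on average at H1, against 24.4 and 21.6 at H1R1 and 23.9 and 24.2 in NC. MYC was the 1 member that rose. This growth-promoting factor stood at 128 and 151 CPM at H1R1 and at 305 and 329 CPM at H1R6 (1.19, SE 0.09, edgeR adjusted p = 6.5e-12), against 296 and 291 in NC and 111 and 119 at H1. Both H1R6 libraries were above both NC libraries, without passing against NC (edgeR adjusted p = 0.50).

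Some inhibitors that end such signalling fell as well. Of 24 tested feedback inhibitors (MAP kinase phosphatases, Sprouty and SPRED proteins, GADD45, ZFP36 and related genes), 11 fell and 1 rose, with a median of -0.59, and 14 were above NC at H1R1 against 2 at H1R6. The shares among protein-coding genes were 12.3% lower and 8.07% higher. DUSP1, the phosphatase of p38 and JNK (chr5:172768096-172771195, minus strand), went from 375 and 428 CPM to 56.2 and 60.8 CPM, against 57.9 and 54.8 in NC. That is a change of -2.78 (SE 0.09, edgeR adjusted p = 4.4e-20) to a level that differed from NC by 0.05 (edgeR adjusted p = 0.85). DUSP16, a phosphatase of JNK, went from 158 and 169.7 CPM to 63.9 and 67.1 CPM (-1.32). TOB2, an antiproliferative factor, went from 188 and 180.1 CPM to 80.9 and 90.1 CPM (-1.11). TNFAIP3, an inhibitor of NF-κB signalling, was the member that rose, from 4.01 and 3.28 CPM to 8.83 and 9.04 (1.27, edgeR adjusted p = 0.015), back to its mean level in NC.

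Of 14 genes of ID proteins, HES and HEY repressors and inhibitory SMADs, 9 fell and 1 rose, against 12.3% lower and 8.07% higher among protein-coding genes. Their median of -0.79 was the lowest of the lists with 8 or more tested members. This rank is a description, since the lists were chosen with earlier results of these data known. SMAD7, which blocks TGF-β receptors, went from 306 and 277 CPM to 58.6 and 56.7 CPM (-2.34, SE 0.12, edgeR adjusted p = 1.7e-15), against 60.4 and 38.6 in NC. ID3, which sequesters bHLH factors, went from 294 and 299 CPM to 136 and 116 (-1.23), and SKIL, a repressor of SMADs, from 129 and 111 CPM to 56.2 and 51.5 (-1.16). The member that rose was HES4, a transcriptional repressor, from 70.8 and 101 CPM to 146 and 152 (0.81).

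ANKRD1, a target of YAP and SRF, went from 15.2 and 12.4 CPM to 1.06 and 2.09 CPM (-3.12, SE 0.46, edgeR adjusted p = 1.2e-05). Against 12.3% of protein-coding genes lower, 8 of 17 targets of YAP and SRF fell and none rose (median -0.30). The cytoskeletal actins ACTB and ACTG1 were among them, ACTB going from 2301 and 2221 CPM to 1710 and 1718 CPM (-0.40, SE 0.05) and ACTG1 from 3011 and 3048 CPM to 2641 and 2533 CPM (-0.23, SE 0.05). Both returned to the levels of NC, which were 1895 and 1745 CPM for ACTB and 2661 and 2558 CPM for ACTG1.

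Some genes did not stop at the level of untreated cells. Of 19 genes of ER chaperones and the unfolded protein response, 14 fell and 1 rose, with a median of -0.40, and against NC 7 were higher at H1R1 while 1 was higher and 5 were lower at H1R6. Among protein-coding genes 12.3% fell and 8.07% rose from H1R1 to H1R6. HERPUD1, a component of ER-associated degradation (chr16:56932142-56944864, plus strand), stood at 199 and 216 CPM at H1R1 and at 62.4 and 57.0 CPM at H1R6. Both H1R6 libraries lay well below both NC libraries, which held 129.5 and 129.9 CPM. The change was -1.80 (SE 0.09, edgeR adjusted p = 3.4e-15), and H1R6 was 1.12 below NC on the log2 scale (-1.12, edgeR adjusted p = 1.1e-09). XBP1, whose spliced message encodes a main driver of this response, went from 178 and 197 CPM to 95.2 and 109.5 CPM (-0.87), below the 165 and 179.8 of NC.

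HSPA5, whose promoter is printed above, was the member that stayed higher than NC. It went from 1084 and 1002 CPM to 779 and 857 CPM (-0.35, SE 0.07, edgeR adjusted p = 0.00031), 0.61 above NC. The member of this list that rose was EDEM1, which helps extract misfolded glycoproteins from the ER and was chosen after its values were seen, from 85.0 and 107 CPM to 125 and 128 CPM (0.40).

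ATF4 is the transcription factor of the integrated stress response, and its targets supply amino acids. Against 12.3% of protein-coding genes lower, 13 of 25 targets fell and none rose, with a median of -0.36. Their medians against NC were -0.51 at H1R1 and -0.94 at H1R6, where 16 and 23 of the 25 were below NC. SLC38A2, a transporter of neutral amino acids, was an exception at first, with 738 and 747 CPM at H1R1 against 406 and 424 in NC, and it then fell to 336 and 285 CPM (-1.26, SE 0.07, edgeR adjusted p = 7.0e-14). CEBPG, a partner of ATF4, went from 146 and 157 CPM to 66.8 and 63.5 CPM (-1.21, SE 0.10), against 110.1 and 134 in NC. DDIT4, an inhibitor of mTORC1, went from 128 and 207 CPM to 91.7 and 71.3 CPM (-1.02, SE 0.14), against 224 and 245 in NC.

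Some ATF4 targets differed between libraries of 1 condition, in H1R1 with replicate 2 the higher (DDIT4, and SLC7A11, the cystine transporter, at 84.9 and 128 CPM) and in H1R6 with replicate 1 the higher (SLC7A11 at 94.1 and 69.5 CPM). The 13 calls became 6 without H1R1 replicate 2, 6 without H1R6 replicate 2 and 8 with library size only. PHGDH, the first enzyme of serine synthesis, which stood at 420.0 and 548 CPM and then at 417 and 377 CPM (-0.28, edgeR adjusted p = 0.021), lost its call in 5 of the alternative settings.

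Of 20 tRNA synthetases, 7 fell and none rose (median -0.14), against 12.3% of protein-coding genes lower. At H1R6, 11 of the 20 were below NC, against 6 at H1R1. MARS1, which charges tRNA with methionine, went from 266 and 307 CPM to 211 and 202 CPM (-0.47, SE 0.08, edgeR adjusted p = 7.6e-05), against 329 and 324 in NC. The 7 became 4 without H1R1 replicate 1 and 3 without H1R6 replicate 2.

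The changes called among the listed genes of biosynthesis were downward, where 8.93% of all genes and 12.3% of protein-coding genes were lower. Of 27 genes of sterol and fatty acid synthesis, 11 fell and none rose (median -0.29), and the count was 7 without H1R1 replicate 1 and without H1R6 replicate 1. FASN, the fatty acid synthase, went from 1947 and 1773 CPM to 1387 and 1456 CPM (-0.39, SE 0.06, edgeR adjusted p = 2.5e-05), against 1405 and 1261 in NC. Of 46 genes of ribosome biogenesis, 14 fell and none rose (median -0.19). The count was 9 with library size only and 7 without H1R1 replicate 1, H1R6 replicate 1 or H1R6 replicate 2. UTP20, of the small subunit processome, went from 149 and 129 CPM to 88.8 and 95.3 CPM (-0.60, SE 0.10), and NPM1, a nucleolar chaperone of histones and ribosomes, from 1076 and 1057 CPM to 825 and 863 CPM (-0.34, SE 0.06).

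Among 74 ribosomal protein genes 16 fell and none rose (median -0.14), against 12.3% of protein-coding genes lower. The 16 became 3 with library size only, 5 without H1R1 replicate 2, 3 without H1R6 replicate 1 and 8 without H1R6 replicate 2. RPS2 was the one with the smallest adjusted p, with 1375 and 1470 CPM at H1R1 and 1143 and 1180 CPM at H1R6 (-0.29, SE 0.06, edgeR adjusted p = 0.00033), against 1486 and 1468 in NC. Ribosomal protein genes have many processed pseudogenes, and reads that fit several places were not counted.

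Histone messages rose together, in an interval where 8.07% of protein-coding genes were higher. Of 65 listed replication-dependent histone genes, 54 were tested, 46 rose and none fell, with a median of 1.05 (1.02 with H3C11, at 0 in both H1R1 libraries, set to its bound). Against NC their median was -1.32 at H1R1 and -0.32 at H1R6, and 46 were below NC at H1R1 against 26 at H1R6. All 5 classes took part: 3 of 4 genes of the linker histone H1 rose, 12 of 13 of H2A, 13 of 15 of H2B, 8 of 10 of H3 and 10 of 12 of H4. The class medians ran from 0.73 for H4 to 1.15 for H1 and H2A. Each of 4 leave-one-out fits of the H1R1 and H1R6 libraries still called 42 to 45 of them higher. Copies within a class are near-identical in sequence, and shared reads were not counted, so values of single genes are uncertain.

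H1-3, a linker histone that packs nucleosomes (chr6:26234212-26234987, minus strand), stood at 63.7 and 75.02 CPM at H1R1 and at 302 and 296 CPM at H1R6, against 279.8 and 289 in NC. The groups were far apart, and the H1R6 libraries lay slightly above NC (2.12, SE 0.09, edgeR adjusted p = 3.1e-17). H1-4, another linker histone, went from 427 and 494 CPM to 1074 and 1035 CPM (1.20, SE 0.07), still below the 1466 and 1613 of NC (-0.55, edgeR adjusted p = 1.2e-06). H2BC11, whose promoter holds the octamer printed above, went from 199 and 209 CPM to 496 and 456 CPM (1.22, SE 0.08), against 563 and 613 in NC.

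**Figure D4:**
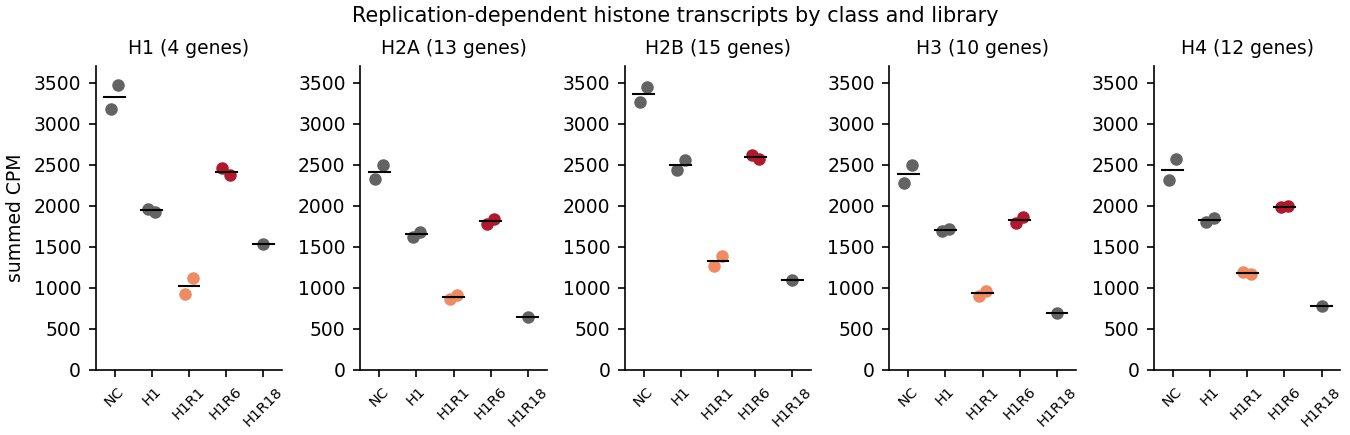
Each panel gives the summed CPM of the tested genes of 1 histone class on the y axis from 0, with the 5 conditions on the x axis; each point is 1 library and each bar the mean of a condition, with H1R1 in orange and H1R6 in dark red. In every class both H1R6 libraries lie above both H1R1 libraries and below both NC libraries, as for H2B with 1270 and 1383 at H1R1, 2617 and 2573 at H1R6, and 3267 and 3447 in NC.

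Other genes of the cell cycle changed little beside the histones. Of 42 S-phase genes, 7 fell and 1 rose (median -0.14), against 12.3% lower and 8.07% higher among protein-coding genes. These counts became 2 and 3 with library size only, and 3 or 2 fell without H1R6 replicate 1 or 2. CCNE1, the cyclin that starts S phase, went from 47.6 and 42.7 CPM to 21.6 and 19.1 CPM (-1.15, SE 0.17, edgeR adjusted p = 1.3e-05), back to the 22.0 and 20.4 of NC. PRIM1, a primase subunit, was the one that rose, from 21.9 and 17.4 CPM to 31.6 and 30.6 CPM (0.65), a call lost with DESeq2 (DESeq2 adjusted p = 0.053) and without H1R1 replicate 2, H1R6 replicate 1 or H1R6 replicate 2. Of 41 genes of G2 and mitosis, 3 rose, a share close to the 6.43% of all genes, and none fell (median 0.10). With library size only 9 rose. Of the 3, HMMR, a hyaluronan receptor that also acts at the spindle, and KIF11, a spindle motor, lost their calls in 4 and 3 of the alternative settings. TOP2A, which untangles DNA, went from 633 and 672 CPM to 815 and 797 CPM (0.30, SE 0.07, edgeR adjusted p = 0.0015).

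The 12 largest rises among well-expressed genes were those of H1-3, DHRS2, TRIM66, PRSS30P, ACCS, HES2, NKX2-3, NEMP2, GMDS-DT, ENSG00000286071, ENSG00000280434 and ENSG00000278041. DHRS2, a short-chain dehydrogenase (chr14:23630115-23645639, plus strand), stood at 9.02 and 13.1 CPM at H1R1 and at 107 and 105 CPM at H1R6. These H1R6 libraries lay far above the 22.0 and 29.2 CPM of NC too, which set DHRS2 apart from most of the 12. Its change was 3.29 (SE 0.20, edgeR adjusted p = 7.0e-14), to 2.06 above NC (edgeR adjusted p = 1.0e-09).

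TRIM66, a chromatin reader (chr11:8612037-8682694, minus strand), went from 7.85 and 15 CPM to 62.7 and 57.7 CPM, against 69.3 and 72.5 in NC. The H1R6 libraries were far above H1R1 and just below NC (2.45, SE 0.19, edgeR adjusted p = 3.4e-11). The other 9 had changes of 1.92 to 3.32 and H1R6 levels between 7.65 and 37.5 CPM. Against NC at H1R6, NKX2-3, a homeobox factor, was lower (-1.13, edgeR adjusted p = 0.019), and the other 8 did not pass. TRIM66, NEMP2, GMDS-DT and ENSG00000286071 overlap a gene on the other strand, and ENSG00000280434 overlaps PARVB on the same strand.

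Among the 12 largest falls, besides DNAJB1, HSPA6, FOSL2, DUSP1 and ZFAND2A, were DEDD2, USPL1, UBE2QL1, PNLDC1, DCAF4L1, EFCAB12 and ENSG00000280099. USPL1, a SUMO isopeptidase, went from 260.0 and 233 CPM to 39.6 and 47.3 CPM (-2.51, SE 0.10, edgeR adjusted p = 1.3e-17), against 43.6 in both NC libraries. DEDD2, which carries a death effector domain, went from 114 and 132 CPM to 12.7 and 23.6 CPM (-2.75, SE 0.17), against 27.1 and 20.4 in NC. UBE2QL1, related to ubiquitin-conjugating enzymes, fell to 5.65 and 4.52 CPM (-2.63), below the 14.7 and 16.96 of NC (-1.63, edgeR adjusted p = 0.00017).

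PNLDC1, a trimmer of piRNA ends, went from 34.3 and 21.8 CPM to 2.12 and 3.13 CPM (-3.42, SE 0.31), against 0.41 and 1.04 in NC. Its start lies 1.81 kb downstream of the gene of MRPL18, a mitochondrial ribosomal protein with the same orientation, which also fell (-1.05, edgeR adjusted p = 1.1e-09). ENSG00000280099 (-2.66) begins 2.69 kb past SYDE2 on its strand, which fell as well (-1.47). EFCAB12 (-2.99) lies 2.3 kb past MBD4 and HSPA6 lies 0.53 kb past FCGR2A, neither of which passed (-0.30 and -0.38). Whether reads that ran past the end of the upstream gene had a part in these values was not tested. EFCAB12 did not pass with DESeq2 (DESeq2 adjusted p = 0.13).

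Genes of RNA processing and noncoding RNA moved in both directions. Of 19 tested SR proteins and their kinases 9 fell and 1 rose (median -0.23), against 12.3% lower and 8.07% higher among protein-coding genes. CLK1, a kinase of SR proteins whose own introns are spliced in response to heat, went from 111 and 132 CPM to 34.3 and 40.5 CPM (-1.69, SE 0.12, edgeR adjusted p = 2.1e-12), against 40.2 and 41.8 in NC. Of 18 snoRNA host genes and nuclear noncoding RNAs 2 rose and 2 fell, near the shares of all genes (6.43% higher and 8.93% lower). Their median was -0.04, and 0.06 with library size only. MALAT1, an abundant RNA of nuclear speckles, went from 3396 and 3834 CPM to 5156 and 5292 CPM (0.53, SE 0.05, edgeR adjusted p = 4.1e-09), above the 2852 and 3215 of NC (0.78 against NC). Targets of NRF2, the factor of the oxidative stress response, had 1 called of 14, OSGIN1, at 3.18 and 6.26 CPM after 0.67 and 0.47 CPM, and a median of -0.08 that was 0.02 with library size only. That is close to the 6.43% of all genes, OSGIN1 had 4 and 2 counts at H1R1, and its call was lost without H1R6 replicate 2. Of 16 clock genes 2 fell and 1 rose, close to the shares of all genes (8.93% lower and 6.43% higher), PER2 going from 24.1 and 25.3 CPM to 8.83 and 15.7 CPM (-1.01) and NR1D1 from 5.35 and 2.34 CPM to 8.48 and 13.9 CPM (1.48). PER2 lost its call without H1R6 replicate 1 and NR1D1 without H1R1 replicate 2 and without H1R6 replicate 2.

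**Figure D5:**
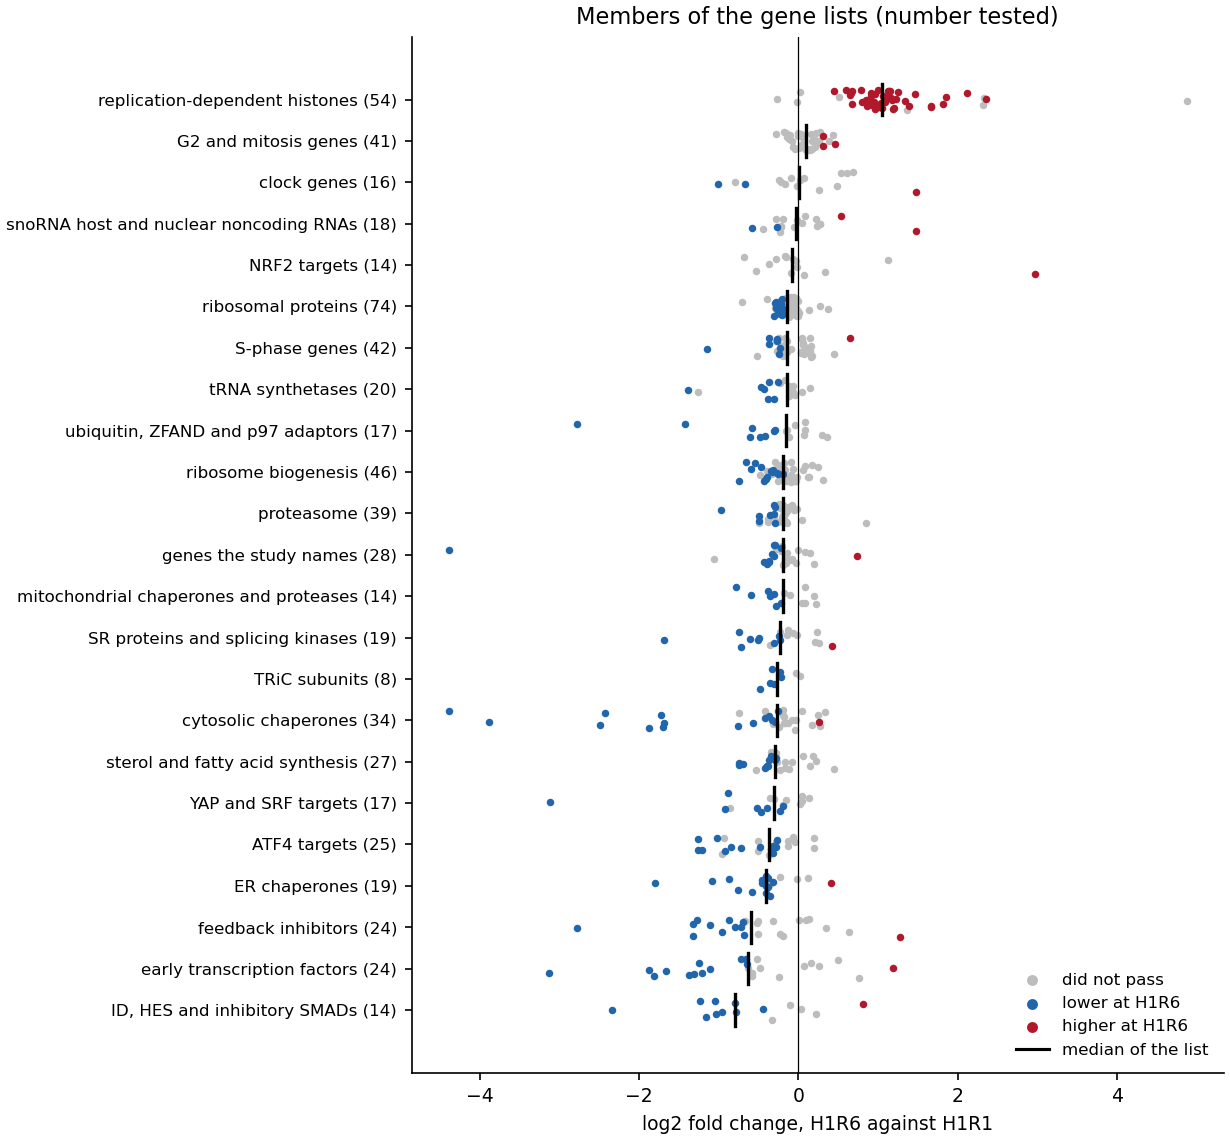
Each row is a gene list with at least 8 tested members (number in brackets), and each point a member at its log2 fold change of H1R6 against H1R1; blue members were called lower, red ones higher, grey ones did not pass, and black bars are medians. The histone list, with a median of 1.05, stands apart on the right, and the lists of ID, HES and inhibitory SMAD genes, of early transcription factors and of feedback inhibitors have the lowest medians, from -0.79 to -0.59. The lists were chosen with earlier results of these data known, so their order is a description.

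The study is concerned with the shape of the nucleus, and 28 of the genes that it names were tested as a list. Of these, 10 fell and 1 rose (median -0.20), and the 10 became 3 to 6 without H1R1 replicate 1, H1R6 replicate 1 or H1R6 replicate 2 and 5 with library size only. Of protein-coding genes 12.3% were lower and 8.07% higher. The study named its genes with these samples at hand, and the list is a selection of them made here. HSP90AA1, which the study also names and which rose (0.26), was not in the list. The counts are thus no independent evidence of a direction. VIM, the intermediate filament vimentin, stood at 269.8 and 291 CPM at H1R1 and at 240.0 and 246 CPM at H1R6, and did not pass (-0.20, SE 0.08, edgeR adjusted p = 0.069). Against the 200.9 and 206.7 CPM of NC, VIM was higher at H1R1 (0.46, edgeR adjusted p = 6.0e-05) and at H1R6 (0.26, edgeR adjusted p = 0.042). TCOF1, a nucleolar factor, went from 434 and 403 CPM to 307 and 314 CPM (-0.43, SE 0.08, edgeR adjusted p = 0.00024). Among members chosen after their values were seen, LMNB1, which encodes lamin B1 of the nuclear lamina, fell by 0.36 on the log2 scale and LMNA, of lamins A and C, did not pass (-0.04). SYNE1, whose giant product links the nucleus to the cytoskeleton, was the member that rose, from 16.7 and 20.2 CPM to 28.8 and 32.3 CPM (0.74, edgeR adjusted p = 0.0076), near the 32.0 and 39.9 of NC.

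The length of a gene, from start to end in the annotation, went with small differences. The share called higher was 3.42% for genes under 5 kb, whose levels were low, and 10.15% for the 1054 genes of 200 to 500 kb, of which 107 were higher and 79 lower. Over 500 kb it was 4.76% of 252 genes. The bin medians lay between -0.04 and 0.02. In protein-coding genes alone the share called higher in the same length classes was 9.55%, 9.84% and 4.05%. The 107 became 44 without H1R1 replicate 1, 53 without H1R6 replicate 1, 56 without H1R6 replicate 2 and 68 without H1R1 replicate 2.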

How the data were processed

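RNA-seq of HEK293T cells was analysed for H1R6 against H1R1 (2 libraries each), with NC and H1 (2 each) and H1R18 (1) in the same fit; groups came from the sample labels. The authors deposited raw counts per gene. Per the file header, featureCounts 2.0.2 assigned reads to Ensembl 104 genes on GRCh38. The submitters' notes add trimming with cutadapt 4.1 and alignment with HISAT2 2.2.1. Both reads of a pair were counted (81.8 to 87.5% of counts above 0 were even), strand was not used, and reads with several alignments or genes were left out. DESeq2 1.38.3 is also named, but no test for RNA-seq is given in the sources used here.

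From the counts, genes were filtered (filterByExpr, minimum count 10, minimum total 15), scaled by TMM and tested with edgeR 4.0.16 (R 4.3.3, limma 3.58.1) by the quasi-likelihood test, 1 coefficient per condition, Benjamini-Hochberg adjustment, threshold 0.05. CPM are TMM-scaled, and SE is the log2 fold change over the square root of F. Totals of 3814195 to 6221613 counts limit the precision for low genes. Symbols matched 60463 of 60664 identifiers (99.7%), and gene types are from GENCODE 29. Replicates differed by more than sampling noise (chi-square per degree of freedom of halved counts 1.6 to 2.15), so none was counted as a duplicate. The scripts were tested on simulated data. Figures used Python 3.11.15, pandas 2.3.3 and matplotlib 3.10.9.

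Named genes are the 12 largest changes in each direction (adjusted p under 0.05, average log2 CPM of at least 3, libraries not overlapping) and, of each of 26 lists, the 3 members with the smallest adjusted p and the 2 highest; others are said to be chosen after their values were seen, and some named genes are not reported here. The members and lists were chosen with earlier results of these data known. Alternatives were other scalings, DESeq2 1.42.0, other filters, fewer libraries, a replicate block, protein-coding genes alone, halved counts, and each library left out in turn.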

Additional observations from a re-analysis of the deposited data

Results flagged for a closer look

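Of the named genes, 25 changed from H1R6 to H1R18 in the direction opposite to their change from H1R1 to H1R6, with the later change and the difference between the changes both called by edgeR's quasi-likelihood test. H1R18 had 1 library, which was assumed to vary like those of the other conditions and has no replicate check. The changes share the H1R6 libraries, and all 25 genes were selected with a called first change, so that the test of the difference is not independent of it. The values that follow are the second change minus the first on the log2 scale, as a description.

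Of genes that had fallen and were higher again at H1R18, HERPUD1 turned most (3.86), going from a mean of 59.7 CPM at H1R6 to 249.9 CPM at H1R18. The AP-1 genes JUND (2.46) and JUN (2.30) turned as well, with JUN at 480.3 CPM at H1R18 against a mean of 308 CPM at H1R6. The kinases of splicing factors CLK1 (2.74) and CLK3 (1.62), the regulators ID3 (2.34), PER2 (2.16), CEBPG (1.84) and DUSP16 (1.73), the ER genes XBP1 (1.76) and HSPA5 (1.02), and the mitochondrial GRPEL2 (1.36) did so too, as did FLNA (1.02), RPS2 (0.75), ACTG1 (0.71) and RPL15 (0.47).

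Of genes that had risen and were lower again at H1R18, DHRS2 turned most (-4.47), from a mean of 106 CPM at H1R6 to 46.7 CPM. The histone genes H1-3 (-3.17), H2BC11 (-2.83), H1-4 (-2.03) and H1-2 (-1.52) followed, H2BC11 falling from a mean of 476 CPM to 157 CPM. The others were SNHG9 (-3.81, at 1.54 to 9.18 CPM in the H1R1, H1R6 and H1R18 libraries), MYC (-1.56), HSP90AA1 (-1.20) and KIF11 (-0.89). The first change of SNHG9 lost its call in 4 of 17 alternative settings, that of KIF11 in 3 of 19, and those of PER2 and RPL15 in 1 each.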

How the results depend on the processing

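Across the 19 alternatives, 76 of the 99 named genes that were called kept their call in all, 23 lost it at least once and none changed sign. The 1360 higher and 1888 lower genes were 724 and 1139 with DESeq2, of which the cause was not tested, and 1946 and 1177 with library size only, which shifts the median of all genes by 0.09. With 1 library left out they ranged from 651 to 1567 higher and from 953 to 1951 lower. Heat-raised genes that fell (435) were 238 with DESeq2, and 236 to 372 with 1 library left out. Heat-lowered genes that rose (176) were 77 with DESeq2, and 75 to 152 with 1 library left out. In genes of 200 to 500 kb, the 79 lower were 48 with library size only, and with 1 library left out 44 to 68 were higher and 33 to 53 lower. The other alternatives (RLE and upper-quartile scaling, other filters, fewer libraries, protein-coding genes alone, halved counts) left these counts within 1.5 times. A replicate block gave 1339 higher and 1823 lower, with 422 heat-raised genes that fell and 177 heat-lowered genes that rose, and no source pairs the libraries: deviations of same-numbered libraries correlated at -0.04 to 0.04 between conditions (across genes, which are not independent). At these depths, changes of low genes are uncertain, and a call on 2 libraries can rest on 1 of them.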

Other observations

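Outside the lists, IRS4, an insulin receptor substrate that HEK293 cells express strongly, was among the most abundant messages that were restored. It stood at 1607 and 1784 CPM at H1R1 and at 3392 and 2964 CPM at H1R6, against 3355 and 3471 CPM in NC. Both H1R6 libraries were well above both H1R1 libraries (0.91, SE 0.06, edgeR adjusted p = 1.9e-13). ATF3, a stress-induced repressor, went from 83.5 and 114 CPM to 28.3 and 27.5 CPM (-1.81, SE 0.13), below the 43.0 and 40.7 CPM of NC. IER5, a feedback factor of HSF1, went from 223 and 275 CPM to 91.5 and 109 CPM (-1.31, SE 0.10), against 75.5 and 76.7 CPM in NC. These genes were chosen after their values were seen.

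Some calls rested on 1 library. ENSG00000283696, a long noncoding RNA, stood at 177 and 13.6 CPM at H1R6 against 13.7 and 9.38 CPM at H1R1, and RNU1-28P, a U1 RNA copy, at 349 and 1719 CPM against 318 and 308 CPM. Both were called higher (edgeR adjusted p = 0.00014 and 0.00012). CHAC1, a glutathione-degrading ATF4 target, stood at 14.3 and 2.09 CPM at H1R6 against 15.04 and 24.9 CPM at H1R1.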
